A study of Labroides dimidiatus with 23 samples.

Results

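The regions described here are the short stretches of forebrain chromatin that every usable H3K27ac library covered with a peak. They were the 300 consensus regions shorter than 1 kb whose bases lay under peaks by at least 50% in each of 22 libraries, out of 52979 consensus regions in all. Among the 20661 consensus regions under 1 kb they made up 1.45%. They were chosen by their cover in those 22 libraries, which is the share of a region's bases under called peaks, so their presence and high cover are a description and not a finding. No genome or gene annotation was used here. The regions are therefore given by chromosome and position as the peak lists give them. The labels used here name no build for these coordinates, and genes and forebrain marker genes at the regions were not analysed here.

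H3K27ac is the acetylation of a lysine in the tail of histone H3, and in vertebrates it marks the nucleosomes beside active promoters and enhancers. CUT&RUN maps such a mark by tethering a nuclease to an antibody in permeabilised nuclei and sequencing the fragments that it releases. Broad H3K27ac domains in vertebrates often spread over clusters of enhancers and over strongly transcribed genes, while a narrow peak can span only a few nucleosomes around a single element.

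The study used forebrain of the adult cleaner wrasse Labroides dimidiatus, a reef fish that removes parasites from client fish. Fish of the familiar groups had been made familiar with a client before a social preference assay, whereas control fish had met neither client before. Each title also carries the number 30 or 120, with no unit. This gave 6 familiar and 5 control libraries with the label 30 and 6 familiar and 6 control libraries with the label 120. All groups share species, tissue and assay, and the labels used here give no strain, sex or exact age. The forebrain was taken whole, so that cells of many types lie behind each peak, and fewer cells with a mark cannot be told apart from less of the mark per cell. Nothing in the labels says outright that libraries came from different fish, so the spread between libraries may be technical in part. A further number in each title, taken as the fish number, comes in runs that each carry a single label of 30 or 120. A difference between these labels therefore cannot be told apart from one between runs.

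The lists of the 22 libraries held between 34714 and 48264 peaks and covered between 67.3 and 95.2 Mb. The list of familiar 30 replicate 2 held 7077 peaks over 4.70 Mb and was left out by the rule that chose the regions. Familiar 120 replicate 3 had the shortest of the other lists, and it, control 30 replicate 3 and familiar 30 replicate 4 stood apart in earlier results on these data. Read depth is unknown, because the files hold peaks and no reads. Peak number and width can move with depth, whose part in any difference below was not tested.

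Each compact region was a single peak in every library. No library had more than 1 peak at any of the 300, although the rule would have allowed several. Their lengths ran from 377 to 998 bp with a median of 831 bp, against a median of 1282 bp over all regions, and together they took up 240.3 kb of 133.6 Mb. Most lay near the upper limit of length, with 86 regions (28.7%) of 900 bp or more and 83 from 800 to under 900 bp, while 21 regions (7%) were shorter than 600 bp. Of all regions from 200 to under 400 bp in the series, 1 of 5222 belonged to the set. The share was 20 of 5109 (0.391%) from 400 to under 600 bp, 110 of 5336 (2.06%) from 600 to under 800 bp and 169 of 4994 (3.38%) from 800 to under 1000 bp. Across these classes of length, shorter regions were more rarely in every library. A region ends where fewer than 3 libraries have a peak, so one shared by more libraries can be built wider. The median length of short regions was 358 bp for those in 3 libraries and 831 bp for those in 22. This order can therefore follow in part from how the regions were built.

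The part common to all libraries was much shorter than the region. The bases that lay under peaks in all 22 libraries formed a core of 406.5 bp at the median, with a range of 166 to 743 bp, and this was 51.7% of the region at the median. The core filled more than 75% of the region at only 8 of the 300. A base of the core needs peaks in all 22 libraries, whereas a base of the region needs them in 3. The core also cannot exceed the lowest cover of a region over libraries, which was 56.7% at the median. Its shortness therefore follows in part from these definitions. The peaks themselves were 643 bp wide at the median region, against medians of 983 to 1102 bp for whole lists. At 500 bp from the centre of a region, 3.17% of the compact regions lay under a peak on the side of lower coordinates and 3.33% on the other, as medians over libraries, and at 1000 bp it was 0.333%. At 2000 bp the medians were 4.33% and 2.33%. The limit on length keeps the ends of a region within 500 bp of its centre. The drop by that distance and the narrow peaks therefore follow from how the regions were chosen.

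**Figure D1:**
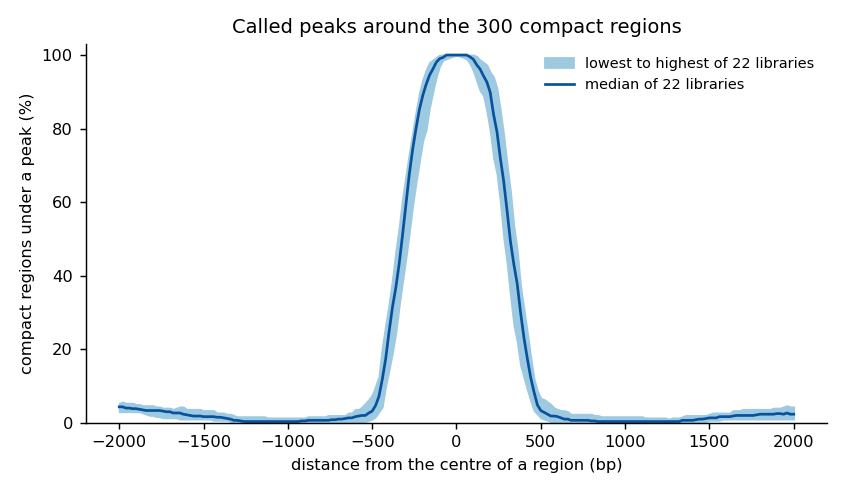
Share of the 300 compact regions that lay under a called peak (%) against the distance from the region's centre (bp), with the median of 22 libraries as a line and the lowest to highest library as a band. All 300 lie under a peak at the centre, and at 500 bp the medians are 3.17% and 3.33%.

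At a minority of the regions a peak of 1 kb or longer was called in at least 1 library. At 178 regions no library had a peak of 1 kb or longer, at 70 regions 1 library had one, and at 52 regions 2 to 4 libraries did. A peak of 3 kb or longer occurred at 11 regions and one of 10 kb or longer at 1. That region, on chromosome 24 from 4434118 to 4434960, lay 855 bp from a region of 29686 bp and was joined into a peak of 31184 bp in familiar 30 replicate 1 and one of 21435 bp in control 120 replicate 4. Another region, on chromosome 15 from 23741936 to 23742933, lay 1011 bp from a region of 24076 bp, and control 30 replicate 1 joined it into a peak of 4939 bp. Both were named after their values were seen, the second also because it was among the longest members. 

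The most evenly covered region was on chromosome 16 from 539570 to 540219. Its cover was 97.3% ± 1.56 (SD, n = 22) with a lowest value of 94.5%, and its core of 613 bp was 94.3% of its length. By group its cover was 98.5% ± 1.76 in familiar 30 fish (n = 5), 97.8% ± 0.649 in control 30 fish (n = 5), 96.0% ± 1.07 in familiar 120 fish (n = 6) and 97.3% ± 1.63 in control 120 fish (n = 6). The ranges of the groups overlap, and its cover varied little between libraries. By lowest cover, the next were chromosome 2 from 2103342 to 2103834 with 91.0% ± 3.55, chromosome 13 from 5993864 to 5994470 with 93.6% ± 3.76, chromosome 10 from 32754186 to 32754664 with 91.6% ± 3.76 and chromosome 2 from 37576828 to 37577480 with 91.0% ± 3.81 (SD, n = 22 each). Even cover did not always go with an even rank. The peak at the chromosome 13 region stood between percentiles 23.7 and 98.3 of its own list, the widest range of the 5. The range was 91.9 to 99.6 on chromosome 16 and 79.6 to 99.9 on chromosome 10. On chromosome 2 it was 59.7 to 97.4 from 2103342 and 70.9 to 98.9 from 37576828. The low ends on chromosomes 13 and 10 and on chromosome 2 from 37576828 were all in familiar 120 replicate 4. Those on chromosome 16 and on chromosome 2 from 2103342 were in familiar 120 replicates 6 and 1. The median percentile of the chromosome 13 region was 91.5.

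The shortest members were an example of how little sequence could be called every time. A region on chromosome 3 from 36739400 to 36739776 was 377 bp long, had a core of 173 bp and was covered by 83.8% ± 11.1 (SD, n = 22), from 57.8% in familiar 120 replicate 1 to 97.6%. Next came chromosome 5 from 8531673 to 8532134, 462 bp long with a cover of 85.1% ± 7.08 (SD, n = 22). The already named region on chromosome 10 from 32754186 was 479 bp long.

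Both limits of the rule cut through a continuous range. The members with the lowest cover in any library were chromosome 22 from 9715933 to 9716769 at 50.06%, chromosome 15 from 21203255 to 21204089 at 50.06% and chromosome 8 from 22459784 to 22460514 at 50.2%. Just outside were chromosome 18 from 26062731 to 26063703 at 49.95%, chromosome 22 from 18140681 to 18141391 at 49.93% and chromosome 12 from 29492953 to 29493949 at 49.85%. The longest members were 998, 998 and 997 bp long, on chromosome 15 from 23741936 to 23742933, chromosome 20 from 537475 to 538472 and chromosome 12 from 2257198 to 2258194. The shortest regions over the limit were 1000, 1001 and 1002 bp, on chromosome 11 from 21386500 to 21387499, chromosome 1 from 7390012 to 7391012 and chromosome 9 from 18150627 to 18151628. A lowest cover of 50 to 55% was held by 119 members and one of 45 to 50% by 142 other short regions.

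The set was the top of a rising tail in the number of libraries that shared a short region. The number of regions under 1 kb fell from 4781 in 3 libraries to 207 in 18 and then rose to 262 in 21 and 300 in 22. Of the 262 regions below the limit in a single library, 66 were untouched by any peak there. The library that fell short was familiar 120 replicate 4 for 71 of them (27.1%), familiar 120 replicate 3 for 44 (16.8%) and familiar 30 replicate 6 for 20. The lowest cover of the 300 members fell in the same 3 libraries most often, at 59, 35 and 26 regions.

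Cover differed between libraries within each group. The mean cover of the 300 regions ran from 69.9% in familiar 120 replicate 4 to 85.3% in control 120 replicate 2, with a median of 79.1% over 22 libraries. By group it was 79.6% ± 4.19 in familiar 30 fish (SD, n = 5), 80.96% ± 2.09 in control 30 fish (SD, n = 5), 77.0% ± 4.49 in familiar 120 fish (SD, n = 6) and 79.8% ± 3.24 in control 120 fish (SD, n = 6). The ranges of all 4 groups overlap. The same 2 libraries were lowest and highest in median fold enrichment at these regions, with 3.34 and 4.60, and in the number of regions at a -log10 q of 5 or more, with 110 and 282. Median peak width was lowest in familiar 120 replicate 4, with 559 bp, and highest in control 120 replicate 2 and familiar 30 replicate 5, with 681.5 bp each. Fold and q are the authors' own values for each peak and serve here mainly to place a peak within its own list. The -log10 q of 5 also serves below as a cutoff for the peaks counted as cover. Read depth is unknown, so differences in fold or q between libraries are descriptions only.

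**Figure D2:**
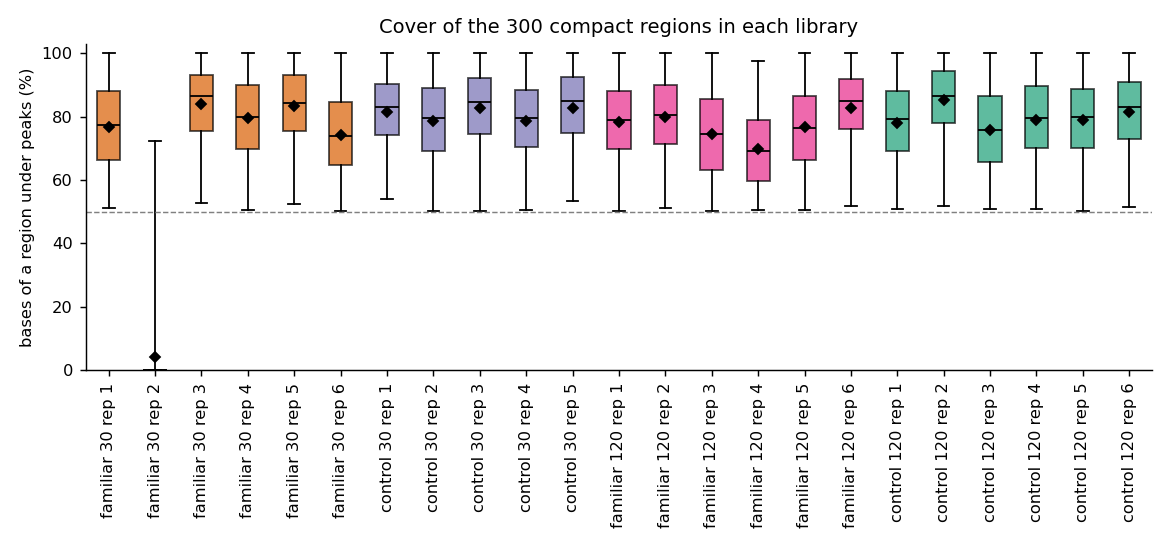
Bases of each of the 300 compact regions under peaks (%) in 23 libraries, with the median as a line, the quartiles as a box, the lowest and highest region as whiskers and the mean as a diamond. The dashed line is the 50% that the rule asked for, the means of 22 libraries lie between 69.9% and 85.3%, and familiar 30 replicate 2, which the rule did not use, has a mean of 4.12%.

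Within a library's own list, the peaks at the compact regions ranked high in fold enrichment. Their percentile of fold enrichment, which is the percent of the library's peaks with a lower fold, was 82.3 at the median of the 300 regions, each region being taken as its median over 22 libraries. It was above 50 at 299 regions, above 90 at 60 and above 95 at 14. Peaks at the other regions under 1 kb, where a library covered 50% or more of the region, had library medians of 29.1 to 56.8, against 72.6 to 87.7 at the compact regions. Peaks at regions of 1 to 3 kb in every library had library medians of 81.0 to 90.6, and those at regions of 3 kb or longer in every library 86.6 to 92.4. Where a region held several peaks in a library, the one with the highest fold was ranked. Each compact region held only 1, so this choice can raise the longer classes against them. In 22 of 22 libraries the compact regions stood above the other short regions and below the regions of 1 to 3 kb that were also in every library. These classes come from the same peaks whose cover defined them, so this order has no test. Length was not held equal, with a median of 595 bp for the other short regions and 831 bp for the compact ones. Short regions in 21 of the 22 libraries, the class most like the compact ones, were not ranked separately.

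**Figure D3:**
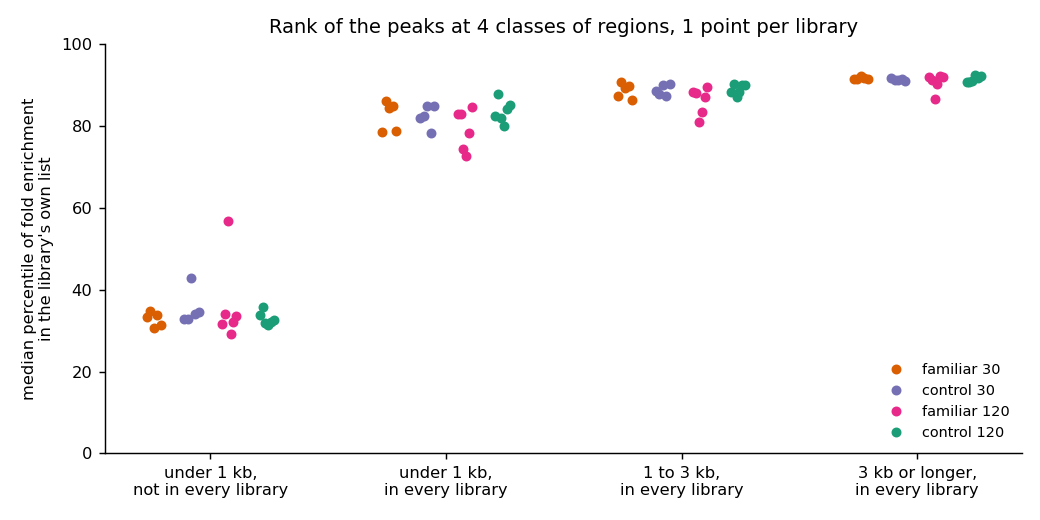
Median percentile of fold enrichment within each library's own list (0 to 100) at 4 classes of regions, with 1 point per library (n = 22) coloured by group. Compact regions in every library lie between 72.6 and 87.7, other regions under 1 kb between 29.1 and 56.8, and the point at 56.8 is familiar 120 replicate 3.

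Rank varied widely among the 300 and showed almost no relation to length. The median fold enrichment over libraries ran from 2.70 to 9.01 with a median of 3.96. Across the 300 regions the percentile had a Spearman's rho of 0.0100 with length, of 0.0565 with mean cover and of -0.00131 with the distance to the nearest region, as descriptions over regions that share libraries. The order of the regions by fold recurred between libraries, with rho of 0.474 at the median of 231 pairs of libraries and a range of 0.321 to 0.591. For the order by cover the median rho was 0.129. The rule set a lower limit to cover in every library and none to fold, which can lower rho for cover. Whether cover recurs less than fold therefore cannot be read from these values. Pairs within a group and pairs across groups had nearly the same medians of rho, with 0.465 and 0.474 for fold and 0.125 and 0.129 for cover.

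The top of that order was held by the region on chromosome 19 from 2582224 to 2583120. Its peak had a median fold of 9.01 with a range of 5.997 to 11.6, and it was never below percentile 98.9 in any of the 22 lists. Its cover was 90.8% ± 7.61 (SD, n = 22). The next in rank were chromosome 14 from 1294528 to 1295155 with a fold of 6.70 and a percentile of 98.6, chromosome 20 from 4038129 to 4039091 with 6.46 and 98.5, chromosome 1 from 21047422 to 21048263 with 6.35 and 98.0, and chromosome 10 from 32754186 to 32754664 with 6.13 and 97.8. High rank and high cover were separable, as the chromosome 1 region had a cover of only 71.9% ± 12.9 (SD, n = 22).

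The bottom of the order was the region on chromosome 10 from 28830202 to 28831178, the only member with a median percentile below 50. Its fold was 2.70, its percentile 47.1 and its cover 84.1% ± 11.1 (SD, n = 22), and its peak reached a -log10 q of 5 in 1 library. Chromosome 20 from 349196 to 349845 was similar, with a fold of 2.79, a percentile of 54.8, a cover of 87.8% ± 9.36 (SD, n = 22) and 1 library at that q. The remaining low ones were chromosome 17 from 28403183 to 28403860 with a fold of 2.91, chromosome 21 from 20455440 to 20456072 with 2.89 and chromosome 13 from 2215093 to 2215764 with 2.95. These 5 were low in rank only among the 300, where 299 had a median percentile above 50. The rule required each of them in all 22 libraries. At a -log10 q of 5 or more, 58 regions (19.3%) had a peak in all 22 libraries and 255 (85%) in at least 11.

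Familiar 30 replicate 2, whose list played no part in choosing the regions, gives a separate look at them in 1 library. It had a peak touching 30 of the 300 (10%), which covered 6 of them (2%) by 50% or more and none by 80%. The same list touched 86 of 20361 other regions under 1 kb (0.422%), 718 of 2003 regions of 1 to 3 kb in every library (35.8%) and 1693 of 2514 longer ones in every library (67.3%). Among regions in every library the share touched was 2 of 21 (9.52%) below 600 bp, 9 of 110 (8.18%) from 600 to under 800 bp and 19 of 169 (11.2%) from 800 to under 1000 bp. It was 50 of 247 (20.2%) from 1000 to under 1200 bp and 326 of 743 (43.9%) from 2000 to under 3000 bp. Among short regions it was 0.0418% for those in 3 of the 22 libraries, 2.90% for those in 18, 5.73% for those in 21 and 10% for those in 22. A longer region gives a short list more bases to touch, and these shares are for 1 library and have no test.

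Which of the 300 that library touched went with their rank in the other libraries. In 5 sets of 60 regions each, ordered from the lowest to the highest percentile, it touched 0, 1, 4, 10 and 15. The median lengths of these sets were 851, 826, 796, 823 and 839.5 bp. The 30 touched regions had a median percentile of 89.1 against 80.7 for the others and a median length of 844 against 828 bp. Its own peaks there were weak and narrow, with a median width of 303 bp and -log10 q between 1.36 and 4.21.

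The 5 of these regions with the highest fold in that list were chromosome 4 from 27584109 to 27584883 with 4.15, chromosome 19 from 2582224 to 2583120 with 3.85, chromosome 17 from 8006258 to 8007186 with 3.60, chromosome 20 from 11540592 to 11541565 with 3.50 and chromosome 4 from 5015913 to 5016908 with 3.49. The chromosome 19 region, first in rank over the other libraries, was covered by 65.9% there. The region with the most even cover, on chromosome 16 from 539570, had no peak in it.

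**Figure D4:**
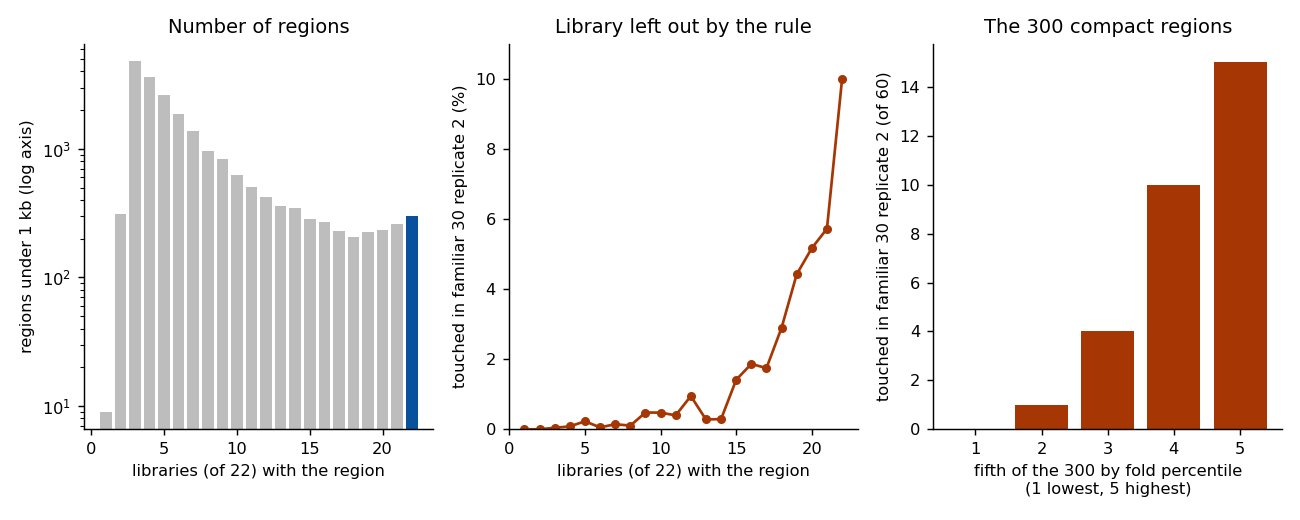
Left, number of regions under 1 kb (log axis) by the number of the 22 libraries that held them, with the 300 compact regions in blue. Middle, percent of those regions touched by a peak in familiar 30 replicate 2, which rises to 10% at 22 libraries. Right, number touched there in 5 sets of 60 compact regions ordered by fold percentile, from 0 in the lowest to 15 in the highest.

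The compact regions lay farther from other consensus regions, at the median, than the comparison classes. The nearest consensus region was 5238 bp away at the median, with a range of 685 to 53822 bp. The medians were 2830.5 bp for other regions under 1 kb, 2832 bp for regions of 1 to 3 kb in every library and 1331 bp for longer ones. No other region lay within 10 kb of 84 of the 300 (28%), against 3335 of 20361 (16.4%), 279 of 2003 (13.9%) and 80 of 2514 (3.18%) in those classes. These gaps were measured on the regions themselves, which are not independent of each other, and no test was made. The rule also joins neighbours that the peaks of 3 libraries bridge, and a joined region can pass 1 kb and leave the set. That can widen the gaps around the regions that stay, so the larger gaps cannot be read as a trait of the compact regions. The nearest neighbour was under 1 kb at 144 regions and was in every library at 42 (14%).

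The most isolated was the region on chromosome 22 from 10575985 to 10576664, with no other region for 53822 bp. It was covered by 77.3% ± 14.8 (SD, n = 22), and its peak reached a -log10 q of 5 in all 22 libraries. The others at the far end were chromosome 11 from 28386781 to 28387507 with 45271 bp, chromosome 18 from 16024369 to 16025058 with 45071 bp, chromosome 11 from 11482648 to 11483315 with 42734 bp and chromosome 11 from 29003288 to 29003921 with 39966 bp. The highest median percentile of fold enrichment over the 22 libraries among the 5 was 88.9, in the chromosome 22 region. Distances were taken to consensus regions, and peaks that fewer than 3 libraries shared were not counted.

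The regions were spread over all 24 numbered chromosomes. Chromosome 13 held 24, chromosome 10 held 21 and chromosome 2 held 19, while chromosome 4 held 5. Per 10 Mb of chromosome, taken to the end of its last region, this was 7.55 on chromosome 20, 7.50 on chromosome 13, 2.02 on chromosome 7 and 1.43 on chromosome 4. Of the short regions on a chromosome, the compact ones made up 2.36% on chromosome 13 and 0.522% on chromosome 4. The distance to the next compact region was 587156 bp at the median, and 8 regions formed 4 pairs closer than 10 kb. One such pair stood on chromosome 10, with regions from 32067895 to 32068533 and from 32073415 to 32074357, and the closest regions to each other were 4881 bp apart. The pairs were named after their positions were seen.

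Whether these regions differed between familiar and control fish was asked with limma on cover, fitted over all 52924 regions whose mean cover was between 5 and 95% and adjusted by Benjamini-Hochberg over them. This kept 299 of the 300, and the region on chromosome 16 from 539570 was above the limit. No compact region and no other region passed an adjusted p of 0.05 in any of the 5 comparisons, so the share called was 0% throughout. The fit drew the spread at each region toward that of all regions tested, which bears on the counts at an unadjusted p. Counts with the spread as a function of mean cover are given in the closing part. Exact permutation tests were run only at regions picked for the smallest limma p in a comparison of 2 groups, on the same covers. Their p-values are not adjusted and can be small through that choice, so they are no separate support. Since cover could not fall below 50% at these regions, a loss of the mark in a group could not appear, and what follows is about how much of each region was covered.

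At the label 30, 2 of 299 compact regions had an unadjusted p under 0.05 for familiar against control fish, 0 higher and 2 lower in familiar fish, where 3% of all regions did, 1.72% higher and 1.27% lower. The median difference was -1.40 percentage points over the compact regions and 0.44 over all regions tested. On chromosome 14, the region from 4330233 to 4330908 had covers of 57.2%, 60.8%, 89.3%, 63.9% and 56.2% in familiar fish and 84.9%, 86.8%, 100%, 79.3% and 88.2% in control fish. All familiar libraries but 1, replicate 4, lay below all controls. The difference was -22.3 ± 9.58 percentage points (limma, SE; unadjusted p = 0.0293, adjusted p = 1; exact two-sided permutation p = 0.0397). With only peaks of -log10 q of 5 or more counted as cover, it was -1.45 points. On chromosome 5, the region from 3120053 to 3120769 differed by -16.8 ± 7.83 points (limma, SE; unadjusted p = 0.0433, adjusted p = 1; exact two-sided permutation p = 0.0635). Its covers were 62.9%, 78.7%, 58.2%, 81.0% and 55.1% in familiar and 79.1%, 80.1%, 77.1%, 83.5% and 100% in control fish, and the groups overlap. This difference was -10.8 points with only peaks of -log10 q of 5 or more and -28.0 points with familiar 30 replicate 2 included.

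At the label 120, 3 of 299 compact regions had an unadjusted p under 0.05, 1 higher and 2 lower in familiar fish, where 4.35% of all regions did, 0.703% higher and 3.65% lower. The median difference was -3.15 points over the compact regions and -4.13 over all regions. On chromosome 15, cover of the region from 14968061 to 14968909 ran from 51.1% through a median of 54.2% to 80.1% in 6 familiar fish and from 60.1% through 83.4% to 92.5% in 6 controls. Familiar fish were mostly close to the lowest cover that the rule allowed, and the groups overlap. The difference was -19.8 ± 9.34 points (limma, SE; unadjusted p = 0.0456, adjusted p = 0.968; exact two-sided permutation p = 0.0260), and -37.5 points with only peaks of -log10 q of 5 or more. On chromosome 5, the region from 33714597 to 33715470 differed by -18.1 ± 8.50 points (limma, SE; unadjusted p = 0.0442, adjusted p = 0.968; exact two-sided permutation p = 0.0649). Its medians were 56.5% in familiar and 76.4% in control fish, and the ranges overlap. The third, chromosome 5 from 5908854 to 5909730, was higher by 15.7 ± 7.48 points (limma, SE; unadjusted p = 0.0473, adjusted p = 0.968).

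The comparison of the familiar effect between the labels 120 and 30 gave 2 of 299 compact regions at an unadjusted p under 0.05, both positive, where 4.15% of all regions had one, 0.926% positive and 3.22% negative. The median of this interaction was -0.97 points over the compact regions and -5.19 over all regions. On chromosome 5, the region from 5908854 had a cover of 71.9% to 76.3% in the 6 control 120 libraries and 63.3%, with a median of 95.6%, up to 98.3% in the familiar 120 libraries. At the label 30 its covers were 73.3%, 76.5%, 91.8%, 71.3% and 74.7% in familiar and 89.3%, 92.0%, 100%, 75.4% and 76.6% in control fish. All familiar 120 libraries but replicate 3 lay above all control 120 libraries, and at the label 30 the groups overlap. Its interaction was 24.9 ± 11.1 points (limma, SE; unadjusted p = 0.0354, adjusted p = 0.9999), and 37.8 points with familiar 30 replicate 2 included. At the region on chromosome 9 from 20831916 to 20832882 it was 27.4 ± 12.1 points (limma, SE; unadjusted p = 0.0337, adjusted p = 0.9999), with group means of 70.4% and 84.8% in familiar and control 30 fish and 86.5% and 73.5% in familiar and control 120 fish. With only peaks of -log10 q of 5 or more the interaction at the chromosome 9 region was 53.9 points. That region was joined into a peak of 6944 bp in control 30 replicate 1.

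In control fish, 2 of 299 compact regions had an unadjusted p under 0.05 between the labels 120 and 30, both lower at 120, where 3.2% of all regions did, 1.75% higher and 1.45% lower. These comparisons share the control libraries with those above. On chromosome 16, the region from 2338135 to 2339046 had covers of 86.3%, 91.2%, 94.6%, 88.4% and 98.4% at 30 and ran from 53.0% through a median of 64.5% to 86.3% at 120. The 2 groups meet only at 86.3%. The difference of -25.1 ± 8.19 points had the smallest unadjusted p of any compact region (limma, SE; p = 0.00562, adjusted p = 1; exact two-sided permutation p = 0.00866). The chromosome 5 region from 3120053 had covers of 77.1% or more at 30 and at most 75.3% at 120 with no overlap, and a difference of -19.9 ± 7.50 points (limma, SE; unadjusted p = 0.0143, adjusted p = 1; exact two-sided permutation p = 0.00433). With only peaks of -log10 q of 5 or more counted, its difference was 2.69 points and had the opposite sign. Any groups of these sizes without overlap give the permutation p of this region, so it adds nothing to the lack of overlap.

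In familiar fish, 3 of 299 compact regions had an unadjusted p under 0.05 between the labels 120 and 30, 1 higher and 2 lower, where 4.19% of all regions did, 0.695% higher and 3.49% lower. The median difference was -2.08 points over the compact regions and -4.81 over all regions. On chromosome 13, the region from 31207636 to 31208439 had covers of 100%, 95.9%, 80.6%, 79.6% and 58.7% at 30 and ran from 56.1% through 62.1% to 76.4% at 120. Familiar 30 replicate 6 lay inside the range at 120 and the other libraries at 30 lay above it. Its difference of -19.7 ± 8.28 points (limma, SE; unadjusted p = 0.0266, adjusted p = 0.999) turned to 6.78 with only peaks of -log10 q of 5 or more and was -5.85 with familiar 30 replicate 2 included. On chromosome 14, the region from 1563962 to 1564948 was higher at 120 by 17.9 ± 8.03 points (limma, SE; unadjusted p = 0.0360, adjusted p = 0.999), with covers of 77.3%, 63.8%, 66.0%, 80.9% and 59.8% at 30 and from 73.8% through 89.1% to 100% at 120. It was 1.01 points with only peaks of -log10 q of 5 or more and 29.5 points with familiar 30 replicate 2 included. The third, chromosome 7 from 16908282 to 16908876, had a difference of -16.3 ± 7.52 points (limma, SE; unadjusted p = 0.0408, adjusted p = 0.999).

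**Figure D5:**
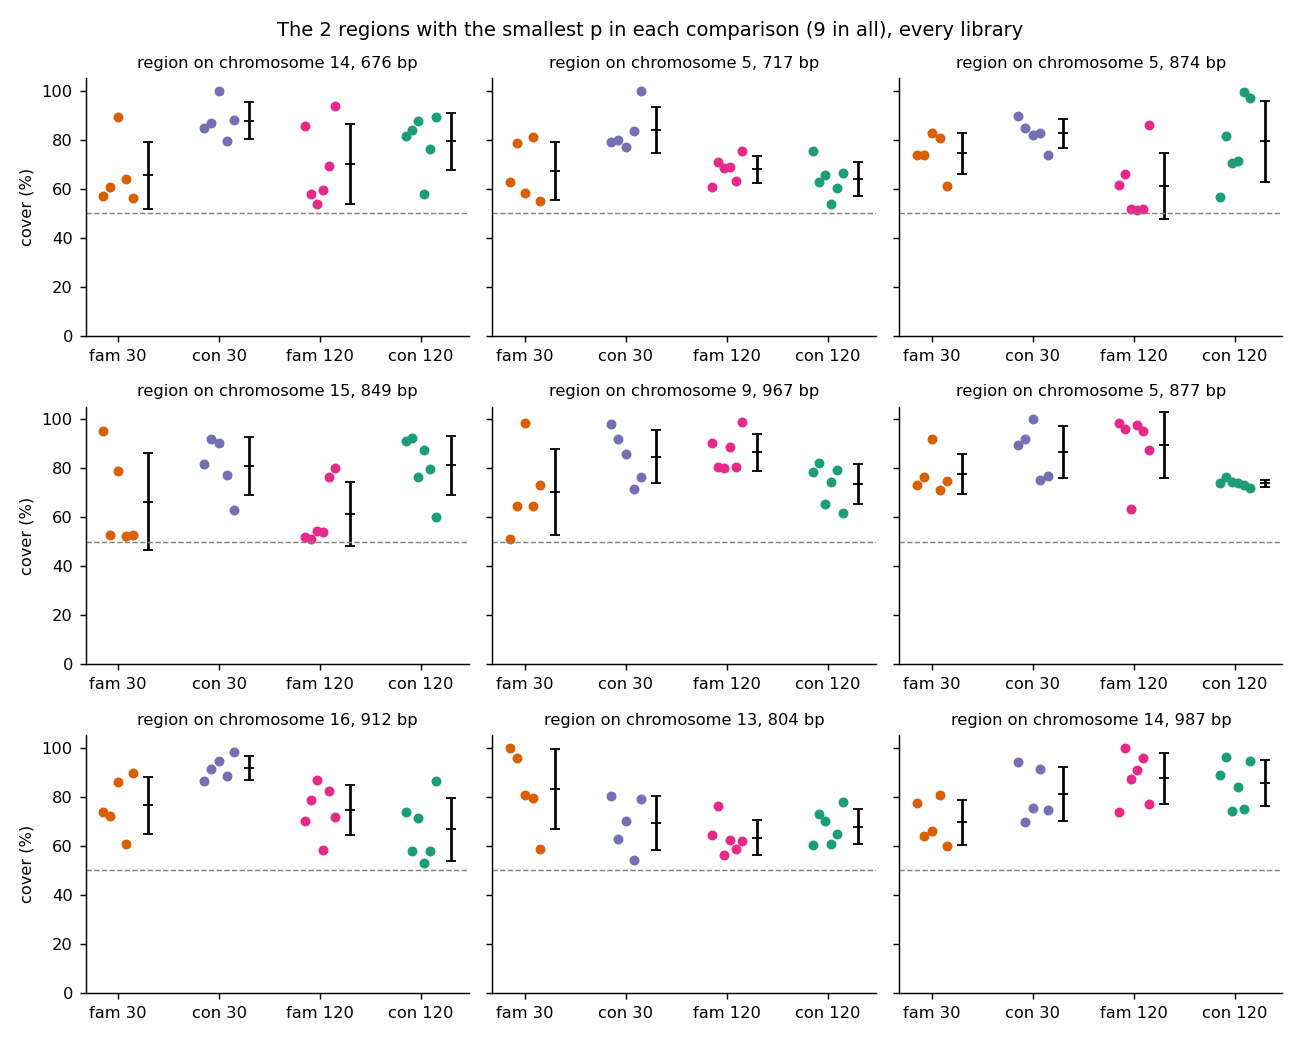
Cover (%) of the 9 compact regions with the smallest p in the 5 comparisons in every library that the rule used, by group (familiar and control, labels 30 and 120), with the group mean and SD as a bar (n = 5, 5, 6 and 6). The dashed line is the 50% below which no member could fall, and no difference between groups passed an adjusted p of 0.05.

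Between 0 and 2 of the 300 compact regions had groups whose covers did not overlap, and these regions were named after their values were seen. For familiar against control fish at 30, 1 of 300 had no overlap, where 0.26% of all 52979 regions did. It was chromosome 1 from 35867796 to 35868297, with 93.3% ± 3.85 in familiar (SD, n = 5) and 86.9% ± 0.906 in control fish (SD, n = 5). For familiar against control fish at 120 it was 0 of 300, where 0.113% of all regions did. In control fish between 120 and 30 it was 2 of 300 against 0.202% of all regions, namely the chromosome 5 region from 3120053 and chromosome 14 from 19179000 to 19179929, with 66.8% ± 6.03 at 120 (SD, n = 6) and 56.1% ± 2.68 at 30 (SD, n = 5). In familiar fish it was 1 of 300 against 0.168%, chromosome 3 from 12900397 to 12901262, with 70.8% ± 1.33 at 120 (SD, n = 6) and 87.4% ± 12.6 at 30 (SD, n = 5). None of these passed the adjusted test. Limma draws the spread at a region toward that of all regions tested. At the chromosome 1 region its SE was 6.96 points (limma; unadjusted p = 0.364), although the SDs of the 2 groups compared were small.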

How the data were processed

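H3K27ac CUT&RUN libraries of forebrain were prepared with a commercial kit and unique molecular identifiers and sequenced in read pairs, per the labels' protocols. Trimmomatic 0.39, FastQC, Bowtie2, SAMtools, Picard and MACS2 were used, per the submitters' processing notes. Neither the MACS2 settings nor the use of input DNA as a control is named by the sources used here. The authors called peaks separately for each library. The score the authors deposited equals 10 times the -log10 q without decimals in 99.99% of rows. The deposited fold enrichment is a ratio of signal to background, and the -log10 p and -log10 q columns the authors deposited come from the peak caller, with no -log10 q below 1.00. Peak lists carry no read depth, so no counting interval is given.

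Consensus regions were bases under peaks in at least 3 of 22 libraries, joined over gaps up to 200 bp and kept at 200 bp or longer, without the mitochondrial sequence. Cover was the percent of a region's bases under peaks. A percentile of fold is the percent of a library's peaks with a lower fold, taken for the peak of highest fold at a region. Cover entered one limma 3.58.1 model of the 4 groups (R 4.3.3), with 2-sided tests adjusted over all regions, after a test on simulated data, with exact permutation tests for single regions. Python 3.11.15, numpy 2.4.6, scipy 1.17.1, pandas 2.3.3 and matplotlib 3.10.9 did the rest. The regions, the lists of members to name and the settings were chosen with earlier results of these data known. Members named by rule were the 5 with the highest lowest cover, the 5 highest and 5 lowest in percentile, the 5 most isolated, the 3 longest, 3 shortest and 3 lowest in minimum cover, the 5 highest in fold in familiar 30 replicate 2, and the 2 with the smallest p in each comparison, which gave 40 regions. Replicate numbers follow accession order and pair nothing. Lists of genes and cell type markers could not be used without an annotation.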

Additional observations from a re-analysis of the deposited data

Results flagged for a closer look

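Of 56 sets of values tested for a library far from the rest of its group, 9 had one. Chance alone gives about 1 in 20. The 9 cannot be weighed against that rate, because the choice of regions shaped several of these sets. In the familiar 30 group, replicate 2 stood apart in the mean cover of the 300 regions (4.12%). It also did so in median percentile of fold at the regions it touched (48.8) and in median width of its peaks there (303 bp). The rule held cover high in the other libraries and did not use replicate 2, so its low cover is no separate finding. Its percentile and width rest only on the 30 regions that its short list touched. The number of compact regions covered whole was 11 in familiar 120 replicate 5 and 18 in control 120 replicate 2, each far above its group. Single covers stood apart at 3 of the named regions. These regions were named for their small p in limma, and the rule set a lower limit to their cover. At chromosome 14 from 4330233 familiar 30 replicate 4 had 89.3%, and at chromosome 5 from 3120053 control 30 replicate 5 had 100%. At chromosome 5 from 5908854 familiar 30 replicate 4 had 91.8% and familiar 120 replicate 3 had 63.3%. What lies behind these values was not tested.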

How the results depend on the processing

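The number of regions that meet the rule depends most on its terms. It was 300 as reported and 5 at a presence of 80%, 931 with a single base as presence, 1819 for regions built on bases in at least 11 libraries, 46 on bases in at least 1 library, 58 with only peaks of -log10 q of 5 or more, 6 with familiar 30 replicate 2 included, 368 without the 3 libraries that stood apart (familiar 120 replicate 3, control 30 replicate 3 and familiar 30 replicate 4), and 301 to 371 without each library in turn, the latter without familiar 120 replicate 4. The share present in familiar 30 replicate 2 was 2% as reported, 10% for 1 base and 0% for 80%. The share with no other region nearby was 28% within 10 kb, 51% within 5 kb and 0.333% within 50 kb. The median percentile was 81.7 to 82.8 without each library.

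No compact region passed an adjusted p of 0.05 in limma under any setting run. Over all regions, 0 passed as reported. Without the 3 libraries it was 2 for familiar against control fish at 30, 1 at 120 and 2 between labels in familiar fish. Between labels in controls it was 1 with array weights, 2 with only the groups compared and 1 with the spread as a function of mean cover, a setting chosen after seeing the data. Leaving out each library gave 0 to 3 at 30, 0 to 1 at 120, 0 to 1 for the interaction, 0 to 1 in controls and 0 to 28 in familiar fish, where 28 came without familiar 30 replicate 6 and 3 at 30 came without the same library.

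Counts of compact regions at an unadjusted p under 0.05, in the order familiar against control at 30, at 120, interaction, controls and familiar fish, were 2, 3, 2, 2 and 3 as reported. With only peaks of -log10 q of 5 or more they were 7, 18, 11, 9 and 16 of 297, or 2.36%, 6.06%, 3.70%, 3.03% and 5.39%, beside 2.43%, 3.85%, 2.47%, 2.37% and 3.06% of all 20177 regions tested so. With the spread as a function of mean cover they were 5, 10, 9, 5 and 11 of 299, or 1.67%, 3.34%, 3.01%, 1.67% and 3.68%, beside 2.62%, 4.61%, 4.08%, 2.78% and 4.19% of all regions. Including familiar 30 replicate 2 gave 0 at 120, for the interaction and in controls. With only the groups compared it was 1 at 30, 0 at 120 and 0 in familiar fish, with covered length as a covariate 1 at 120 and 4 for the interaction, and without the 3 libraries 5 in familiar fish. Leaving out each library gave 1 to 4, 0 to 5, 0 to 5, 1 to 4 and 0 to 5. The differences at chromosome 5 from 3120053 in controls and chromosome 13 from 31207636 in familiar fish turned to 2.69 and 6.78 with only peaks of -log10 q of 5 or more. The cause was not tested. Of the other values for single regions, 306 kept their direction and their side of an adjusted p of 0.05. The adjusted p of these regions in limma was from 0.968 upward as reported. Keeping that side was thus nearly fixed in advance and is no measure of stability. The differences at the named regions still changed in size by over 1.5 times where the report gives a second value. Of the counts, shares and median percentiles, 289 stayed the same and 78 moved. A count stayed the same if it was within 1.5 times of the reported one. A share did so inside the confidence interval of the reported one, and a percentile within the SD between libraries. No paired analysis was possible because each fish number occurs in a single library and replicate numbers follow accession order. The fit of the interaction on only the groups compared was not run, since it uses all groups, and distance to promoters was not run. Unknown read depth limits all statements on width and presence.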

Other observations

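With only peaks of -log10 q of 5 or more counted as cover, 17 of the 18 compact regions at an unadjusted p under 0.05 for familiar against control fish at 120 were lower in familiar fish, as were 632 of the 777 among all regions tested so, and none passed the adjusted test in limma. Over the 300 regions, familiar fish had the lower mean cover at 203 and the higher at 97 for the label 120, and at 168 and 132 for the label 30. The median difference over all regions tested was -4.13 points at 120 and 0.44 at 30, so lower cover at 120 was not particular to the compact regions. The 300 regions share the same libraries and are not independent. The lowest library at these regions, familiar 120 replicate 4, also had the smallest share of its list at that q (21.8%) and the narrowest median peak over its whole list (983 bp). The part of that library and of depth in these counts was not tested.

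Familiar 120 replicate 3 had the shortest list of the 22 libraries, and its peaks at other regions under 1 kb ranked at a median percentile of 56.8, where the median over libraries was 33.1. At 35 of the 300 compact regions it had the lowest cover of all 22 libraries, and at 48 the lowest rank.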
